A study of Mus musculus with 9 samples.

Results

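The 35 genes described here are the kinesin motor genes of the newborn mouse cortex, taken as every gene whose symbol is Kif followed by a number and at most 1 of the letters a, b or c, out of 24624 genes in the table. RNA was sequenced from the cortex of single mice at postnatal day 0 in 3 genotypes. The 3 *Fezf2*+/+ libraries (bc201, bc202 and bc203) carry the wild-type transcription factor gene *Fezf2*, which is needed for the deep-layer neurons that send axons out of the cortex. The 4 *Fezf2*-/- libraries (bc204 to bc207) carry a null allele with a PLAP reporter knocked into the *Fezf2* locus. The 2 *Fezf2*-/-; *Fezf2-EnR* libraries (bc208 and bc209) carry the same null alleles and a BAC transgene in which the engrailed repressor domain is fused to the FEZF2 DNA-binding domain, at the *Fezf2* start codon, in 1 transgenic line, from a cross of *Fezf2*+/- with *Fezf2*+/-; *Fezf2-EnR* mice. Both hemispheres of a mouse went into 1 library, and 3 litters were used. Litter m1 gave bc201, bc202, bc205 and bc206, litter m2 gave bc203 and bc209, and litter m3 gave bc204, bc207 and bc208. The replicates are therefore separate mice.

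Kinesins are motor proteins that use ATP to move along microtubules or to take them apart. In neurons, members of the kinesin-1, kinesin-2, kinesin-3 and kinesin-4 families carry vesicles, mitochondria and receptors from the cell body into axons and dendrites, whereas in dividing progenitors other members build the spindle, align chromosomes and complete cytokinesis. KIF26A and KIF26B are unconventional members of the kinesin-11 family: KIF26A binds microtubules but lacks ATPase activity, and it is known to restrain GDNF and RET signalling in enteric neurons. The members were sorted by these roles into 2 kinesin-11 genes, 15 axonal and dendritic transport kinesins, 11 mitotic kinesins and 7 others.

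Sequences at the transcription start are shown for both kinesin-11 genes, because limma called only *Kif26a* of the 35 kinesins different between genotypes. They are also shown for 4 mitotic kinesins, because the mitotic genes varied together between libraries. They come from RefSeq (GRCm38.p6), which listed promoters for 29 of the 35 members, and positions are counted from 0 at the first transcribed base. Capitals mark TTTGAA, the core of the cell cycle homology region (CHR) found in many genes of the G2 and M phases, and CCAAT, read on either strand (TTCAAA and ATTGG on the other). The *Kif26a* stretch is chr12:112145958-112146207 on the plus strand and the *Kif26b* stretch is chr1:178528875-178529124 on the plus strand. The 4 mitotic stretches are chr19:37376306-37376395 (*Kif11*, plus strand), chr11:102925095-102925178 (*Kif18b*, minus strand), chr19:34922308-34922387 (*Kif20b*, plus strand) and chr9:61946770-61946854 (*Kif23*, minus strand).
Kif26a: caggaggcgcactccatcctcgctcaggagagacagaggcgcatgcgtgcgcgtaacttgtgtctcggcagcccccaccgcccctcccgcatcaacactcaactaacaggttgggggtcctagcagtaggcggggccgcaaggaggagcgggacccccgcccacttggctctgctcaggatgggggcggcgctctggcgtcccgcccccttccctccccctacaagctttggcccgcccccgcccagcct
Kif26b: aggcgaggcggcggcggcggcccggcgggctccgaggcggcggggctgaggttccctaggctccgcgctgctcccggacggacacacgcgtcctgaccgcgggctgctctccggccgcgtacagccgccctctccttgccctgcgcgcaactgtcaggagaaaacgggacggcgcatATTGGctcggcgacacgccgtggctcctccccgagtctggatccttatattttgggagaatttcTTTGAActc
Kif11: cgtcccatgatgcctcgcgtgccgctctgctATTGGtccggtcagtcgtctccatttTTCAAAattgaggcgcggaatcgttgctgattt
Kif18b: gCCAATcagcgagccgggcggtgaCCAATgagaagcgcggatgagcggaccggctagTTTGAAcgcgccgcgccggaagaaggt
Kif20b: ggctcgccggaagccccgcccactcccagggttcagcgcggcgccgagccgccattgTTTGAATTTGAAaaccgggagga
Kif23: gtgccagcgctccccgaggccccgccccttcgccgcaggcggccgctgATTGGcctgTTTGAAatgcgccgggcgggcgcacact
TTTGAA was found on either strand within 250 bases before and 50 bases after the start in 9 of the 10 mitotic kinesins with a listed promoter (*Kif18a* was the exception), against 17.9% of all 32851 promoters. It was found in 1 of 13 transport kinesin promoters, from 11 genes, and in 1 of 8 promoters of the other kinesins, from 6 genes. *Kif26b* held it, first base at -9, and the *Kif26a* window did not. In the 4 mitotic stretches printed, the match nearest the start began at -19 (*Kif11*), 3 (*Kif18b*), 7 (*Kif20b*) and 2 (*Kif23*). In mitotic kinesins not printed it began at -19 (*Kif15*), -17 (*Kif22*) and 19 (*Kif4*), but at -228 in *Kif14* and -103 in *Kif2c*. CCAAT was found in 6 of the 10 mitotic kinesin promoters, against 37.4% of all promoters. The motifs do not overlap each other in the stretches printed, apart from the adjoining pair of TTTGAA in *Kif20b*. A match of letters is a description of these windows and says nothing of binding.

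Values are read counts divided by a size factor for each library, called normalised read counts below, and whole reads recovered from them sum to between 18716575 and 25127623 a library. The targeted gene followed the labels: *Fezf2* was at 979 to 1232 in *Fezf2*+/+, at 193 to 242 in *Fezf2*-/- and at 907 and 1001 in *Fezf2*-/-; *Fezf2-EnR*, where reads of the transgene cannot be told apart from those of the locus. The cortical glutamatergic marker genes *Neurod6* and *Tbr1* were at 11317 to 15315 and at 5660 to 7888 in the 9 libraries, and the choroid plexus markers summed to 2.19 to 17.9. The striatal projection neuron markers varied more, with sums of 1200 to 1415 in *Fezf2*+/+ and 606 to 2605 in *Fezf2*-/-, highest in bc204. In *Fezf2*-/-; *Fezf2-EnR* they summed to 1941 (bc208) and 995 (bc209). Markers of multiciliated ependymal cells summed to 95.9 to 299 in the 9 libraries. The part of these tissues in the kinesin values was not tested. *Neurod6* and *Tbr1* overlapped between *Fezf2*+/+ and *Fezf2*-/-, whereas other glutamatergic markers did not. *Slc17a7*, the vesicular glutamate transporter 1 gene, was at 2115 to 2385 in *Fezf2*+/+, 2631 to 3945 in *Fezf2*-/- and 2834 and 1271 in *Fezf2*-/-; *Fezf2-EnR*, and *Neurod2* at 7589 to 8372, 5739 to 7434, and 6542 and 8600. Both had an unadjusted p under 0.05 in *Fezf2*-/- against *Fezf2*+/+ (0.51 and -0.31 on the log2 scale) and were not called by limma. The GABAergic interneuron markers (*Gad1*, *Gad2*, *Slc32a1*, *Lhx6*, *Dlx1* and *Dlx2*) summed to 5867 to 6197 in *Fezf2*+/+, 7359 to 8365 in *Fezf2*-/- and 5983 to 6868 in *Fezf2*-/-; *Fezf2-EnR*, and all 6 had higher means in *Fezf2*-/- than in *Fezf2*+/+, with 0 called by limma or edgeR and 3 by DESeq2. Of the marker genes, limma called *Emx1*, a dorsal telencephalon gene, and the meningeal gene *Lum* lower in *Fezf2*-/- than in *Fezf2*+/+, and *Lum* higher in *Fezf2*-/-; *Fezf2-EnR* than in *Fezf2*-/-. Their part in the kinesin values was not tested. *Xist* was above 1000 in bc201, bc208 and bc209 and at most 58.9 in the other libraries, where the Y-linked *Ddx3y* was at least 1169, so both *Fezf2*-/-; *Fezf2-EnR* libraries differed from all *Fezf2*-/- libraries in sex-linked expression as well as in genotype, and these cannot be told apart.

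Per kilobase of exon, the transport kinesins made up most of the kinesin RNA in *Fezf2*+/+ cortex. *Kif5c*, a neuronal kinesin-1 heavy chain, was highest at 3246 ± 185 normalised read counts per kilobase (SD, n = 3). *Kif1a*, the kinesin-3 motor of synaptic vesicle precursors, followed at 2311 ± 70.8, and *Kif21b*, a kinesin-4 motor of dendrites and axons, at 1642 ± 34.4. These 3 genes held 45.1% of the summed per-kilobase level of the 35 kinesins. *Kif26b* ranked 12th with 329 ± 24.6 per kilobase and *Kif26a* 13th with 189 ± 15.5. The lowest were *Kif14* (4.00 ± 0.50), *Kif24* (3.96 ± 0.44) and *Kif6* (3.58 ± 0.47). Of the 34 pairs of neighbours in this order, the ranges over the 3 libraries overlapped in 18 and were apart in 16, and apart from *Kif3b* with *Kif2a* and *Kif2a* with *Kif5b*, the pairs that overlapped all lay from *Kif11* downwards. By list, transport kinesins held 90.4% ± 0.13 of the per-kilobase sum in *Fezf2*+/+, mitotic kinesins 1.09% ± 0.12, the other kinesins 5.23% ± 0.34 and the kinesin-11 genes 3.25% ± 0.13 (SD, n = 3).

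**Figure D1:**
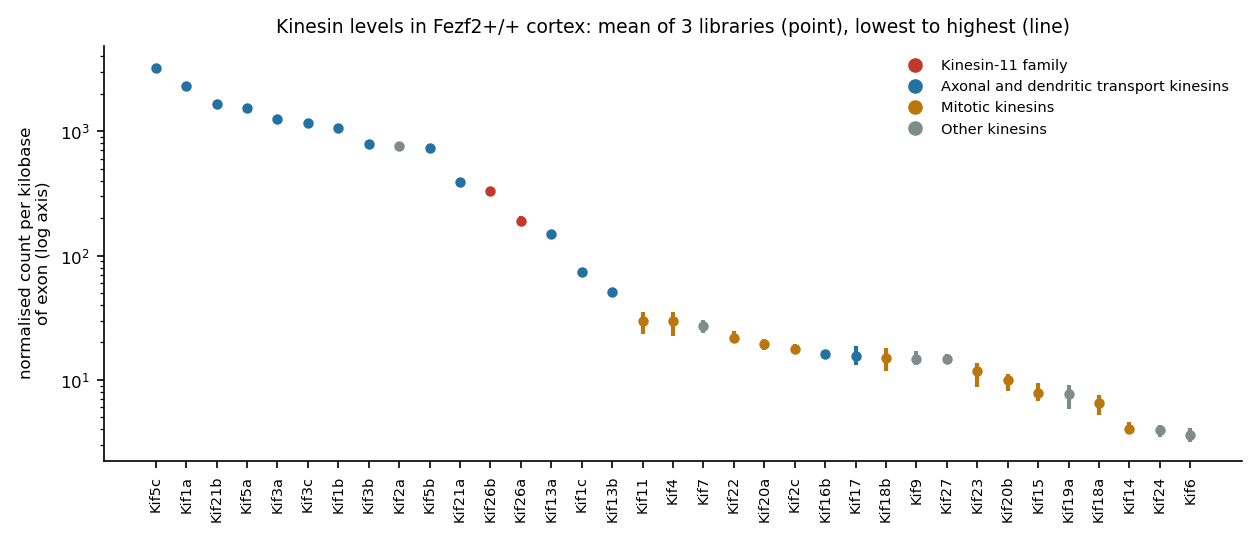
Normalised read count per kilobase of exon (log axis) of the 35 kinesin genes in the 3 *Fezf2*+/+ libraries, ordered from high to low and coloured by list, with the mean as a point and the lowest to highest library as a line. *Kif26b* and *Kif26a* stand at ranks 12 and 13, above every mitotic kinesin and below most transport kinesins.

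*Kif26a* was lower in *Fezf2*-/- than in *Fezf2*+/+ cortex and was near its *Fezf2*+/+ level in the mice that also carried *Fezf2-EnR*. The gene lies at chr12:112146208-112181747 on the plus strand (GRCm38, the build named mm10 in the submitters' processing notes), with 16 merged exons of 6918 bases in all that overlap no other annotated exon. The normalised read counts were 1277, 1429 and 1221 in the *Fezf2*+/+ libraries bc201 to bc203. They were 754, 751, 659 and 563 in the *Fezf2*-/- libraries bc204 to bc207, and 1204 and 1355 in the *Fezf2*-/-; *Fezf2-EnR* libraries bc208 and bc209. Every *Fezf2*-/- library lay below every library of the other genotypes, and the other genotypes overlapped each other.

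The *Fezf2*-/- mean of *Kif26a* was 52.1% of that in *Fezf2*+/+, and the log2 fold change was -0.95 (SE 0.11, 95% confidence interval -1.18 to -0.71, limma adjusted p = 0.00169). The exact two-sided permutation test over 35 splits gave p = 0.0286, the smallest it can give for 3 against 4 mice. *Kif26a* was the only 1 of the 35 kinesins called in this comparison at an adjusted p under 0.05, where 139 of the 16197 genes tested were called (0.858%). It was also the only kinesin with an unadjusted p under 0.05, a threshold passed by 10.8% of all genes. In a bulk sample, fewer cells that express the gene and less RNA in each cell cannot be told apart.

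With the transgene, the mean of *Kif26a* was 188% of that in *Fezf2*-/-, or 0.91 on the log2 scale (SE 0.12, 95% confidence interval 0.64 to 1.18, limma adjusted p = 0.00734). The exact permutation test over 15 splits gave p = 0.0667, the smallest possible for 2 against 4 mice, so it cannot reach the usual threshold. *Kif26a* was again the only kinesin called, where 0.766% of all genes were. Without bc209 the log2 fold change was 0.83 with an adjusted p of 0.132 in limma, the only 1 of 18 alternatives in which it was not called. Without bc208 the call was kept. Against *Fezf2*+/+, the transgenic mice had 97.7% of the mean, and the log2 fold change of -0.03 had a 95% confidence interval of -0.32 to 0.25 (limma adjusted p = 0.916). The comparisons share libraries and are not independent of each other.

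Within litters, *Kif26a* kept its direction in both comparisons in which it was called. In litter m1 the mean of the 2 *Fezf2*-/- mice was 52.1% of that of the 2 *Fezf2*+/+ mice, 705 against 1353. In litter m3 the *Fezf2*-/-; *Fezf2-EnR* mouse had 183% of the mean of its 2 *Fezf2*-/- littermates, 1204 against 659. In litter m2 the *Fezf2*-/-; *Fezf2-EnR* mouse had 111% of the value of its *Fezf2*+/+ littermate, where the means over all libraries gave 97.7%. Among the *Fezf2*+/+ mice the library with high *Xist*, bc201, lay between the other two in *Kif26a*, and all 4 *Fezf2*-/- libraries had low *Xist*.

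*Kif26b*, the paralog, did not show the genotype pattern of *Kif26a*. Its normalised read counts were 5230, 4773 and 4517 in *Fezf2*+/+, and 4548, 5115, 6175 and 5070 in *Fezf2*-/-. They were 4407 and 5564 in *Fezf2*-/-; *Fezf2-EnR*, and the 3 genotypes overlapped. On the log2 scale the null mice stood 0.10 above *Fezf2*+/+ (95% confidence interval -0.14 to 0.34, limma adjusted p = 0.779). The transgenic mice differed from the null mice by -0.07 (-0.34 to 0.20, limma adjusted p = 0.813). The antisense gene *Gm16564* overlaps 909 bases of *Kif26b* exons, and the use of strand in counting was not given in the sources used here. As a share of *Kif26b* in the same library, *Kif26a* was at 24.4%, 29.9% and 27.0% in *Fezf2*+/+. The share was 16.6%, 14.7%, 10.7% and 11.1% in *Fezf2*-/-, and 27.3% and 24.4% in *Fezf2*-/-; *Fezf2-EnR*. The log2 ratio of the paralogs was 1.05 lower in *Fezf2*-/- than in *Fezf2*+/+, from a mean of -1.89 to -2.94 (exact two-sided permutation p = 0.0286, 0.0857 after Benjamini-Hochberg adjustment over 3 comparisons). Against *Fezf2*-/- it was 0.98 higher in *Fezf2*-/-; *Fezf2-EnR* (exact permutation p = 0.0667, adjusted 0.1), and since the exact permutation tests cannot go below 0.0286, 0.0667 and 0.1 in the 3 comparisons, no adjusted p under 0.05 could be reached here. Of the summed per-kilobase level of the 35 kinesins, *Kif26a* held 1.19% ± 0.11 in *Fezf2*+/+ (n = 3), 0.614% ± 0.11 in *Fezf2*-/- (n = 4) and 1.13% ± 0.078 in *Fezf2*-/-; *Fezf2-EnR* (n = 2, each ± SD).

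**Figure D2:**
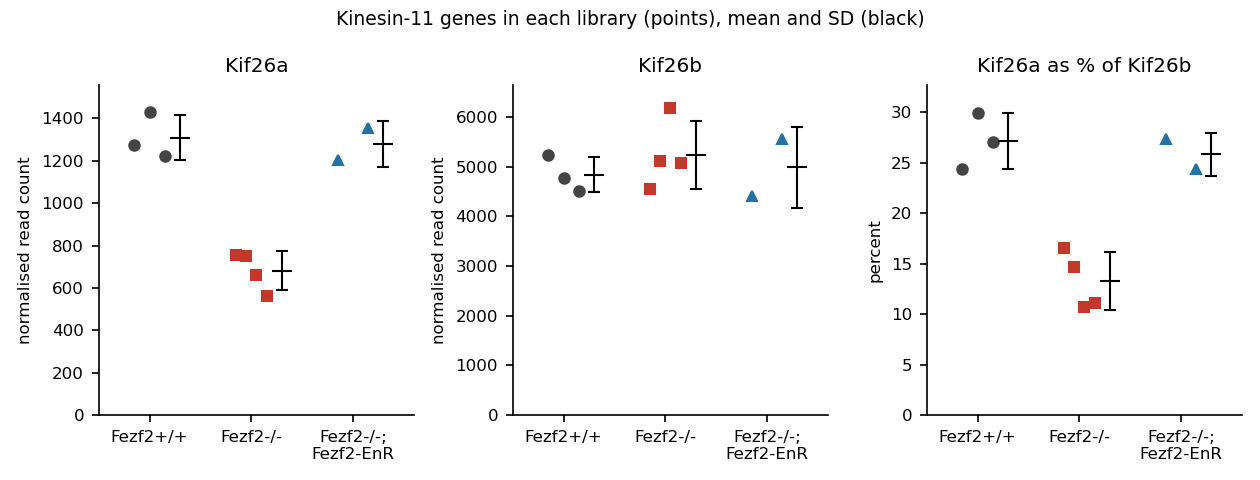
Normalised read counts of *Kif26a* (left) and *Kif26b* (middle), and *Kif26a* as a percent of *Kif26b* (right), in each of the 9 libraries (points) by genotype, with mean and SD in black. The 4 *Fezf2*-/- libraries sit at 563 to 754 for *Kif26a*, below all libraries of the other genotypes, whereas the genotypes overlap for *Kif26b*.

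None of the 15 transport kinesins was called in any of the 3 comparisons by limma. In *Fezf2*-/- against *Fezf2*+/+, their log2 fold changes ran from -0.09 (*Kif3c*) to 0.20 (*Kif16b*), with 9 above 0, a median of 0.07 beside 0.00019 over all genes tested, and 0 with an unadjusted p under 0.05. edgeR and DESeq2 also called 0 of them in this comparison. The widest 95% confidence interval of the 15 was that of *Kif17*, -0.26 to 0.62, and that of *Kif5c* was -0.11 to 0.20.

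The most abundant of them were close to level across genotypes. *Kif5c* was at 24639, 22842 and 22063 in *Fezf2*+/+, at 21091, 24682, 24699 and 25298 in *Fezf2*-/-, and at 22738 and 22582 in *Fezf2*-/-; *Fezf2-EnR*, so the genotypes overlapped. *Kif1a* ran from 21116 to 22322 in *Fezf2*+/+, from 21041 to 26677 in *Fezf2*-/- and from 21579 to 23474 in *Fezf2*-/-; *Fezf2-EnR*. *Kif21b* stayed between 18417 and 20929 in all 9 libraries. The heterotrimeric kinesin-2 motors *Kif3a* and *Kif3b*, which work in axons and in cilia, had log2 fold changes of -0.06 and -0.07 in *Fezf2*-/- against *Fezf2*+/+, and neither was called (limma adjusted p = 0.756 and 0.724).

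A pair of transport kinesins had *Fezf2*+/+ and *Fezf2*-/- libraries that did not overlap, *Kif3c* and *Kif16b*, among 5 of the 35 kinesins that did so (the others being *Kif26a*, *Kif6* and *Kif9*), where 13.0% of all genes did. *Kif3c*, a neuronal kinesin-2 motor, was at 8609, 8623 and 8707 in *Fezf2*+/+, at 7995, 8031, 8165 and 8365 in *Fezf2*-/-, and at 8368 and 8725 in *Fezf2*-/-; *Fezf2-EnR*. The null mice differed from *Fezf2*+/+ by -0.09 on the log2 scale (SE 0.045, limma adjusted p = 0.539), and antisense genes overlap 3205 bases of its exons. *Kif16b*, a kinesin-3 motor of early endosomes, was at 142 to 154 in *Fezf2*+/+, at 165 to 175 in *Fezf2*-/- and at 168 in both *Fezf2*-/-; *Fezf2-EnR* libraries. Relative to *Fezf2*+/+, the null mice stood 0.20 higher on the log2 scale (limma adjusted p = 0.468) and the transgenic mice 0.19 higher (limma adjusted p = 0.356).

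In *Fezf2*-/-; *Fezf2-EnR*, *Kif21a* and *Kif17* lay farthest from the other genotypes among the transport kinesins. *Kif21a*, a kinesin-4 motor that curbs microtubule growth, was at 2686, 2452 and 2505 in *Fezf2*+/+. It was at 2422, 2726, 2728 and 2869 in *Fezf2*-/- and at 2990 and 3476 in *Fezf2*-/-; *Fezf2-EnR*, above every library of the other genotypes. This came to 0.27 on the log2 scale against *Fezf2*-/- (SE 0.085, limma adjusted p = 0.183) and 0.34 against *Fezf2*+/+ (SE 0.09, limma adjusted p = 0.127). The latter was called by DESeq2 (0.34, adjusted p = 0.0203) and by limma without bc208 (0.45, adjusted p = 0.0476), but not by edgeR, and the adjusted p ran from 0.0203 to 0.433 over its alternatives. *Kif17*, the homodimeric kinesin-2 motor of NMDA receptor vesicles, was at 70.1, 85.2 and 60.1 in *Fezf2*+/+, at 68.3, 82.8, 85.5 and 88.0 in *Fezf2*-/-, and at 70.7 and 41.5 in *Fezf2*-/-; *Fezf2-EnR*. The difference of -0.57 on the log2 scale from *Fezf2*-/- (limma adjusted p = 0.249) was set mainly by bc209: it was -0.94 without bc208 (adjusted p = 0.0453, the only alternative in which *Kif17* was called) and -0.19 without bc209 (adjusted p = 0.867). Over the 15 transport kinesins, bc207 was the highest of the 9 libraries for 8 genes and bc204 the lowest for 8, although both are *Fezf2*-/- libraries of 1 litter.

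**Figure D3:**
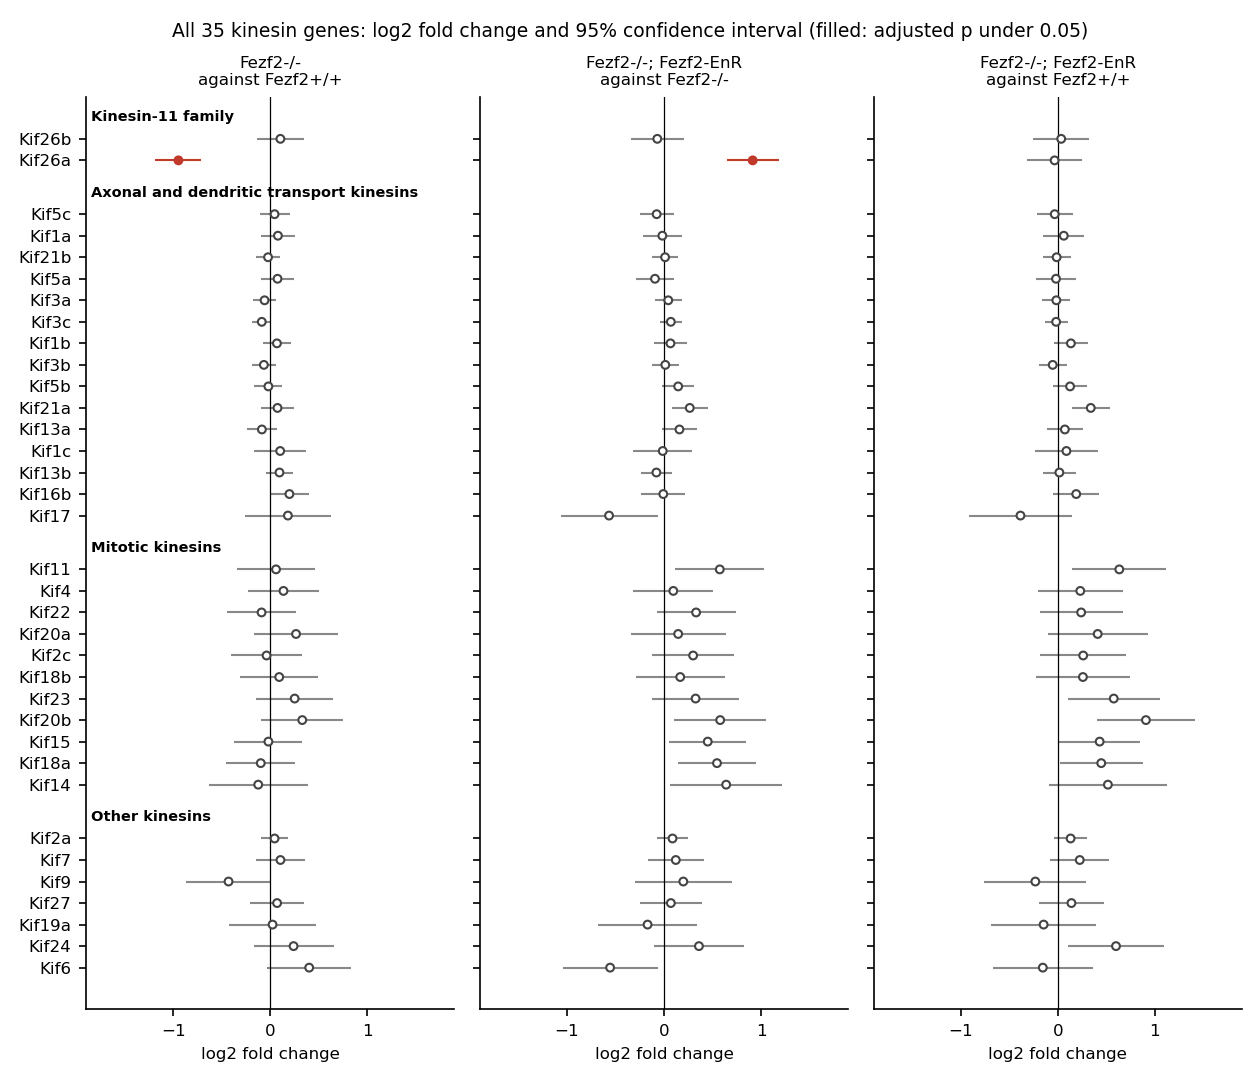
Log2 fold change (point) and 95% confidence interval (line) of the 35 kinesins in the 3 comparisons, grouped by list, and filled red where the limma adjusted p is under 0.05. *Kif26a* is the only filled point, at -0.95 and 0.91 in the left and middle panels, and the 11 mitotic kinesins all lie right of 0 in the middle and right panels without being called by limma.

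The mitotic kinesins differed more between libraries than between *Fezf2*+/+ and *Fezf2*-/-. In *Fezf2*-/- against *Fezf2*+/+, 6 of the 11 had a log2 fold change above 0 and 5 below, from -0.12 (*Kif14*) to 0.33 (*Kif20b*), with a median of 0.06, and 0 passed either threshold in limma. Their summed normalised read counts were 1206, 1074 and 914 in *Fezf2*+/+, 1292, 1146, 1125 and 954 in *Fezf2*-/-, and 1294 and 1650 in *Fezf2*-/-; *Fezf2-EnR*. The *Fezf2*+/+ and *Fezf2*-/- sums overlapped, and both *Fezf2*-/-; *Fezf2-EnR* sums were the highest, bc208 by a narrow margin.

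With the transgene, all 11 mitotic kinesins had values above 0 on the log2 scale against both other genotypes, and 0 were called by limma. Against *Fezf2*-/- the median was 0.33 (range 0.10 to 0.64, beside a median of 0.0030 over all genes), and 5 had an unadjusted p under 0.05, among 9 of the 35 kinesins and 16.9% of all genes. Against *Fezf2*+/+ the median was 0.43 (range 0.23 to 0.91, beside -0.0048 over all genes), and again 5 had an unadjusted p under 0.05, among 7 of the 35 kinesins and 19.3% of all genes. In that last comparison 0 kinesins were called by limma, where 0.117% of all genes were, 0 by edgeR and 1 (*Kif21a*) by DESeq2. edgeR and DESeq2 called 0 mitotic kinesins in all 3 comparisons. The 4 red blood cell markers, all globin genes, were lower in the same libraries, with sums of 5617 to 8251 in *Fezf2*+/+, 5028 to 8763 in *Fezf2*-/- and 4146 to 4479 in *Fezf2*-/-; *Fezf2-EnR*. Their median log2 fold change was -0.63 against *Fezf2*-/- and -0.56 against *Fezf2*+/+, with 4 of 4 at an unadjusted p under 0.05 in both and 0 called by limma or edgeR, while DESeq2 called *Hbb-bt* against *Fezf2*-/-. Their part in the kinesin values was not tested.

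*Kif20b*, a kinesin-6 motor of the midbody in dividing progenitors, was farthest from *Fezf2*+/+, with 134 and 128 in the *Fezf2*-/-; *Fezf2-EnR* libraries bc208 and bc209. It was at 75.2, 56.8 and 78.0 in *Fezf2*+/+ and at 123, 71.9, 81.3 and 81.4 in *Fezf2*-/-, where bc204 stood apart from the other 3. It stood 0.91 above *Fezf2*+/+ on the log2 scale (SE 0.23, limma adjusted p = 0.122) and 0.58 above *Fezf2*-/- (adjusted p = 0.224). *Kif11*, the kinesin-5 motor that separates spindle poles, was the highest mitotic kinesin per kilobase, with 263, 230 and 176 in *Fezf2*+/+, 273, 248, 224 and 182 in *Fezf2*-/-, and 283 and 414 in *Fezf2*-/-; *Fezf2-EnR*. Here both transgenic libraries lay above all others, by 0.58 on the log2 scale against *Fezf2*-/- (SE 0.21, limma adjusted p = 0.216) and 0.63 against *Fezf2*+/+ (adjusted p = 0.173). *Kif18a*, which dampens chromosome oscillation at the metaphase plate, was at 52.3 to 68.3 in *Fezf2*-/- and at 90.6 and 84.1 in *Fezf2*-/-; *Fezf2-EnR*, which is 0.55 more on the log2 scale (limma adjusted p = 0.193). *Kif15*, a second spindle motor, was at 73.8 to 104 in *Fezf2*+/+, at 75.6 to 95.9 in *Fezf2*-/- and at 103 and 132 in *Fezf2*-/-; *Fezf2-EnR*. The transgenic libraries thus overlapped *Fezf2*+/+, and against *Fezf2*-/- the log2 difference was 0.45 (adjusted p = 0.248 in limma).

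For most mitotic kinesins the differences in *Fezf2*-/-; *Fezf2-EnR* were larger in bc209, the highest of the 9 libraries for 8 of the 11 genes, than in bc208. *Kif20b* and *Kif18a* were higher in bc208, and without bc209 they stood 0.62 and 0.60 above *Fezf2*-/- on the log2 scale (limma adjusted p = 0.758 and 0.738). *Kif14*, a kinesin-3 motor needed for cytokinesis, was at 84.1 in bc209 and at 31.6 to 47.3 in the other 8 libraries. The log2 difference from *Fezf2*-/- came to 0.64 (limma adjusted p = 0.256), 1.14 without bc208 (adjusted p = 0.0284) and 0.15 without bc209 (adjusted p = 0.904). Without bc209 the median of the 11 was 0.16 against *Fezf2*-/-, with 8 of 11 above 0 and 1 with an unadjusted p under 0.05, and 0.23 against *Fezf2*+/+, with 10 of 11 above 0. Without bc208 the medians were 0.49 and 0.60, and 1 gene (*Kif14*) was called against *Fezf2*-/-. Within litters, all 11 were higher in the *Fezf2*-/-; *Fezf2-EnR* mouse of litter m2 than in its *Fezf2*+/+ littermate (median log2 difference 0.77), and bc203, that littermate, was the lowest of the 9 libraries for 6 of the 11. In litter m3, 9 of 11 were higher in the *Fezf2*-/-; *Fezf2-EnR* mouse than in the mean of its *Fezf2*-/- littermates (median 0.23). In litter m1, 4 of 11 were higher in *Fezf2*-/- than in *Fezf2*+/+ (median -0.06).

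Proliferation genes that encode no kinesin had a like order of libraries. The 16 genes of that list, among them *Mki67* and *Top2a*, summed to 3824, 3274 and 2684 in *Fezf2*+/+, 4140, 3609, 3589 and 2968 in *Fezf2*-/-, and 4004 and 5553 in *Fezf2*-/-; *Fezf2-EnR*. As for the mitotic kinesins, bc209 was highest, and bc203 and bc207 were lowest. The median log2 fold change of the 16 was 0.38 against *Fezf2*-/- and 0.45 against *Fezf2*+/+, with 16 of 16 above 0 in both and 0 called by limma or edgeR, while DESeq2 called *Mki67* and *Top2a* against *Fezf2*+/+. In limma, 5 and 9 of the 16 had an unadjusted p under 0.05, beside 16.9% and 19.3% of all genes. Without bc209 the medians were 0.16 and 0.24. The part of the number of dividing cells in the kinesin values was not tested. *Kif4*, which lies on the X chromosome, stood 0.10 higher on the log2 scale in *Fezf2*-/-; *Fezf2-EnR* than in *Fezf2*-/- (limma adjusted p = 0.831) and shares 832 bases of exon with *Pdzd11*. *Kif20a* shares 1271 bases with *Cdc23*, and its value may hold reads of that gene.

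**Figure D4:**
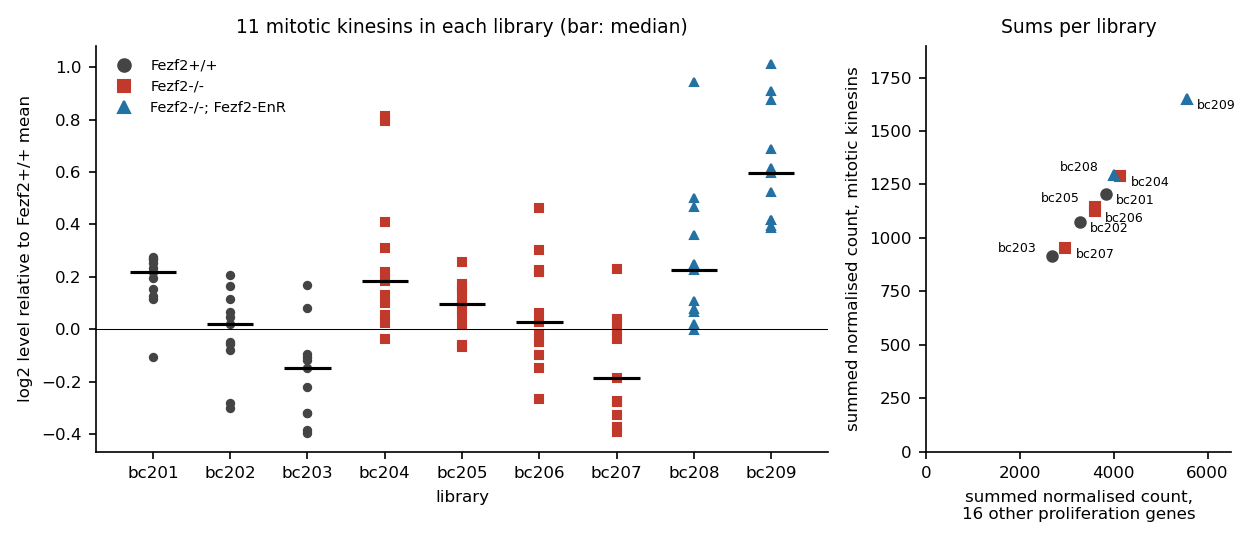
Left, log2 level of the 11 mitotic kinesins (points) in each library relative to their mean in *Fezf2*+/+, with the median as a bar. Right, summed normalised read count of the mitotic kinesins against that of 16 other proliferation genes in the same library. bc209 stands highest in both sums, at 1650 and 5553.

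The 7 other kinesins were not called in any comparison by limma, edgeR or DESeq2. Counted with the same 35 members, non-overlapping libraries were found for 11 kinesins in *Fezf2*-/-; *Fezf2-EnR* against *Fezf2*-/- (24.6% of all genes) and for 12 against *Fezf2*+/+ (34.6% of all genes), and 1 and 4 of these were among the 7. *Kif2a*, a microtubule depolymerase that trims axon branches, was the highest of them, at 4517 to 5120 in *Fezf2*+/+, 4762 to 5460 in *Fezf2*-/- and 5236 and 5448 in *Fezf2*-/-; *Fezf2-EnR*, and shares 1229 bases of exon with *Dimt1*. *Kif7*, which works in hedgehog signalling at the tip of the cilium, was at 109 to 139 in *Fezf2*+/+, 125 to 141 in *Fezf2*-/- and 140 and 151 in *Fezf2*-/-; *Fezf2-EnR* (0.11 on the log2 scale in *Fezf2*-/- relative to *Fezf2*+/+, limma adjusted p = 0.792).

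*Kif9* and *Kif6*, both found in motile cilia, had the largest log2 fold changes of the 35 kinesins after *Kif26a* in *Fezf2*-/- against *Fezf2*+/+, and neither was called. *Kif9* was at 60.8, 56.8 and 73.8 in *Fezf2*+/+, at 50.2, 42.5, 45.9 and 49.0 in *Fezf2*-/-, and at 71.7 and 40.4 in *Fezf2*-/-; *Fezf2-EnR*, whose 2 libraries lay on either side of the *Fezf2*-/- range. The null mice differed from *Fezf2*+/+ by -0.43 on the log2 scale (SE 0.20, limma adjusted p = 0.477). *Kif6* was at 24.5, 18.9 and 21.1 in *Fezf2*+/+, at 27.1, 33.8, 29.2 and 24.9 in *Fezf2*-/-, and at 20.9 and 17.5 in *Fezf2*-/-; *Fezf2-EnR*. The *Fezf2*-/- libraries lay above those of both other genotypes, by 0.40 on the log2 scale against *Fezf2*+/+ (limma adjusted p = 0.505), and the *Fezf2*-/-; *Fezf2-EnR* mean differed from that of *Fezf2*-/- by -0.56 (adjusted p = 0.248). At such low counts the intervals were wide: -0.87 to 0.011 for *Kif9* and -0.03 to 0.83 for *Kif6* in *Fezf2*-/- against *Fezf2*+/+. The multiciliated ependymal markers summed to 141 to 180 in *Fezf2*+/+, 95.9 to 207 in *Fezf2*-/-, and 299 (bc208) and 132 (bc209) in *Fezf2*-/-; *Fezf2-EnR*. Their part in the values of *Kif9* and *Kif6* was not tested. *Kif24*, which removes microtubules at the mother centriole, was at 27.9 to 34.7 in *Fezf2*+/+, at 31.6 to 48.2 in *Fezf2*-/- and at 47.8 and 49.2 in *Fezf2*-/-; *Fezf2-EnR*. The transgenic libraries thus overlapped *Fezf2*-/-, and against *Fezf2*+/+ the log2 difference was 0.60 (limma adjusted p = 0.189).

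Genes that work with kinesins were examined from lists of partners and of the opposing motor. In *Fezf2*-/- against *Fezf2*+/+, limma called 0 of 9 tested kinesin light chains, accessory subunits and kinesins with other names, 0 of 21 cargo adaptors and regulators, and 0 of 23 genes of cytoplasmic dynein and dynactin. The same lists had 0, 3 and 3 members with an unadjusted p under 0.05, all 6 lower, beside 10.8% of all genes. *Klc1*, the main neuronal light chain of kinesin-1, stood at 0.03 on the log2 scale (limma adjusted p = 0.904), and *Kifap3*, which joins the kinesin-2 motors to cargo, at -0.0095 (adjusted p = 0.968). The farthest from 0 was the dynein intermediate chain *Dync1i1*, whose mean was 5768 in *Fezf2*+/+, 4495 in *Fezf2*-/- and 5065 in *Fezf2*-/-; *Fezf2-EnR*. The first of these differences was -0.36 on the log2 scale (SE 0.08, limma adjusted p = 0.0797), and DESeq2 called it. In the 2 comparisons with *Fezf2*-/-; *Fezf2-EnR*, limma and edgeR also called 0 genes of these 3 lists. In the first and the third list, DESeq2 called *Kifc2* lower against *Fezf2*-/-, and *Cenpe* higher and *Dctn2* lower against *Fezf2*+/+. *Cenpe*, the kinetochore kinesin that the symbol rule leaves out, was at a mean of 155 in *Fezf2*+/+, 179 in *Fezf2*-/- and 245 in *Fezf2*-/-; *Fezf2-EnR*.

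The GDNF and RET signalling genes, which KIF26A is known to restrain in another neuron type, were measured in the same libraries. Of 15 genes, 11 passed the filter on low values, and the ligand *Gdnf* did not. In limma 0 of the 11 were called in *Fezf2*-/- against *Fezf2*+/+, where 0.858% of all genes were. At an unadjusted p under 0.05, 2 were higher and 1 lower, beside 10.8% of all genes. The GPI-anchored co-receptors *Gfra1* and *Gfra2* were the 2 higher, with log2 fold changes of 0.47 (adjusted p = 0.119) and 0.43 (adjusted p = 0.191) in limma, and DESeq2 called *Gfra1*. The receptor *Ret* itself stood at 0.21 (limma adjusted p = 0.669). Against *Fezf2*-/-, the *Fezf2*-/-; *Fezf2-EnR* values were -0.36 for *Gfra1*, -0.38 for *Gfra2* and -0.45 for *Ret*. Of the 11 genes, 0 were called by limma, edgeR or DESeq2. In limma 4 were lower at an unadjusted p under 0.05, beside 16.9% of all genes.

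Across the 9 libraries, the genes whose values followed those of *Kif26a* most closely were *Ccdc59* (Pearson r = 0.977), *Tcerg1l* (0.974) and *Hs3st4* (0.970), given as a description, since the libraries fall into genotypes. *Tcerg1l* had a mean of 819 in *Fezf2*+/+, 177 in *Fezf2*-/- and 732 in *Fezf2*-/-; *Fezf2-EnR*, and *Hs3st4*, a heparan sulfate sulfotransferase gene, of 2307, 586 and 2012. For *Ccdc59* the means were 506, 444 and 505, a log2 difference of -0.19 between *Fezf2*-/- and *Fezf2*+/+ that was not called (limma adjusted p = 0.320). Among the other 34 kinesins, *Kif3c* (r = 0.765) and *Kif22* (0.600), a chromokinesin, had the highest correlation with *Kif26a* and *Kif13b* (-0.798) and *Kif6* (-0.769) the lowest. *Kif13b*, a kinesin-3 motor, was at 644 to 687 in *Fezf2*+/+, 684 to 741 in *Fezf2*-/- and 670 and 682 in *Fezf2*-/-; *Fezf2-EnR*. The null mice stood 0.10 above *Fezf2*+/+ on the log2 scale (limma adjusted p = 0.654).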

How the data were processed

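RNA of the cortex at postnatal day 0 was sequenced in 9 libraries of 3, 4 and 2 mice. The deposited table holds signal values, read counts per gene that the authors divided by a size factor for each library, per the labels. The submitters' processing notes name Bowtie, STAR, DESeq and the build mm10. The annotation release, the counting tool and the use of strand were not given in the sources used here. At a tolerance of 0.0055, 100.0% of values were whole multiples of the worth of 1 read, which gave recovered reads. All columns of sample values were used (0 left out).

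Genes with a mean of at least 10 over the 9 libraries were tested on log2(value + 1) with limma 3.58.1 (R 4.3.3), with an intensity trend, 1 coefficient per genotype and Benjamini-Hochberg adjustment over the 16197 genes. Called means an adjusted p under 0.05. Fold changes are on the log2(value + 1) scale, which understates changes of low genes. edgeR 4.0.16 (quasi-likelihood) and DESeq2 1.42.0 were run on recovered reads, and single values were also compared by exact two-sided permutation tests. The limma, edgeR and DESeq2 fits were tested on simulated data with 200 changed genes, only for *Fezf2*-/- against *Fezf2*+/+. Other pseudocounts, filters and scalings, a litter block and leaving out each library were tried. No library pair matched within sampling noise. Tables and figures were made with Python 3.11.15, pandas 2.3.3 and matplotlib 3.10.9.

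The members, role lists, partner lists, marker lists and tests were chosen with earlier results of these data known. Named are the kinesin-11 genes, called kinesins and the 3 highest per kilobase of each list. Further genes were drawn from the 2 with the largest positive and negative fold changes per list. The comparisons used for this were those of *Fezf2*-/- with *Fezf2*+/+ and with *Fezf2*-/-; *Fezf2-EnR*. The called or 2 most different genes of partner lists were a further source. Not all genes that met these last rules are named. Other genes named were chosen after their values were seen. *Kif12*, *Kif25*, *Kif28* and *Kif2b* were not analysed here. Some results for genes of the partner and marker lists are not reported here. Exon lengths and positions came from a GRCm38 annotation matched by gene ID (24595 of 24624 genes). Counts limit the precision of low genes.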

Additional observations from a re-analysis of the deposited data

Results flagged for a closer look

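In *Fezf2*-/-, the only genotype with enough libraries for a check of single values, 2 of the 35 kinesins had a library far from the other 3, by the gap to the nearest library divided by the whole range. Chance gives such a result in about 1 in 20 genes. *Kif14* was at 31.56 in bc207, against 39.23 to 40.66 in the other *Fezf2*-/- libraries, a gap of 0.843 of the range. *Kif5c* was at 21090.67 in bc204, against 24682 to 25298 in the others, a gap of 0.854 of the range.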

How the results depend on the processing

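*Kif26a* was called in *Fezf2*-/- against *Fezf2*+/+ in all alternatives run. Against *Fezf2*-/-, its value with the transgene ran from 0.83 to 0.9998 on the log2 scale when each library was left out, and the call was lost without bc209. Against *Fezf2*+/+ that value was 0.058 with the litter block and -0.12 to 0.053 when libraries were left out, on either side of 0 and not called. The genes called in *Fezf2*-/- against *Fezf2*+/+ (139) numbered 221 with only the libraries of both groups, 233 in litter m1 alone, 315 with DESeq2 and 66 to 217 without single libraries. For the transgenic against the null mice (124) they numbered 67 with only both groups, 454 with DESeq2 and 21 to 1088 without single libraries. For the transgenic mice against *Fezf2*+/+ (19) they numbered 10 at a mean of at least 50, 12 with only both groups, 32 with the litter block, 641 with DESeq2 and 8 to 491 without single libraries. edgeR called 142, 114 and 15. The lowest and highest counts with the transgene came from leaving out bc209 and bc208. The kinesins called in the transgenic against the null mice were 0 to 3 without single libraries, where leaving out bc208 added *Kif14* and *Kif17*, and against *Fezf2*+/+ they were 0 to 1, and 1 with DESeq2, *Kif21a* in both cases. *Kif18b* against *Fezf2*+/+ ran from -0.0041 (without bc209) to 0.52. The transport kinesins' median in *Fezf2*-/- against *Fezf2*+/+ (0.07) was 0.015 with the litter block, 0.0071 in litter m1 alone and 0.015 to 0.094 without single libraries. Of 105 kinesin fold changes, 52 lay within 1 SE of 0, and 63 of their 952 alternative values had the other sign, with 0 of those 952 called. The cause of these shifts was not tested. The genotypes share no replicate number in the labels, so mice were paired only through their litters, and the litter block kept the *Kif26a* call in both comparisons in which it was made. A group of 2 mice and counts under 100 for most mitotic and ciliary kinesins limit what could be detected.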
